A study of Mus musculus and Homo sapiens with 34 samples.

Results

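Genes of the respiratory chain and of ATP synthase were followed through 34 RNA sequencing libraries of lung adenocarcinoma cultures, with the subunits encoded in the nucleus set beside the 13 encoded in the mitochondrial genome. Rows were taken from 7 tables of raw counts by gene name, in any case: Ndufa, Ndufb, Ndufc, Ndufs and Ndufv genes, Sdha to Sdhd, Uqcr genes, Cox4 to Cox8 genes, Atp5 genes, and mt-Nd, mt-Co, mt-Cytb (MT-CYB in human) and mt-Atp. The names found 222 distinct identifiers of 48431 listed, mouse and human counted apart: 164 nuclear subunit genes, 26 mitochondrial genes, 25 pseudogenes and 7 antisense, divergent or read-through transcripts. A table held 79 to 83 nuclear members, of which 79 in each mouse table and 81 or 82 in the human tables passed the filter on low counts. All 13 mitochondrial members passed in every table. The nuclear members below the filter were Cox6a2 in both tables of 3154 organoids, Ndufb4b in the 48-hour one of them, Cox4i2 in 3311 cells, COX6B2 in the doxycycline table and COX8C in the trametinib tables of both human lines. Pseudogenes and the other transcripts were counted but are not among the members tested.

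The libraries form 17 groups of 2 replicates, 22 mouse libraries and 12 human ones. The mouse 3154 organoids carry p53frt alleles, the recombinase transgene Rosa-FSF-CreERT2 and Hnf4aflox, controls included. They were given 4-hydroxytamoxifen (4OHT, 2 mM as labelled), which activates the CreERT2 recombinase, to delete Hnf4a, or ethanol, and were sampled 2 weeks later. A second experiment had 4OHT and ethanol groups, each with or without the inhibitor MRTX1133 at 3 nM. Its time is given as 48 hours, as in the trametinib experiments, and its 4OHT dose is not given. Below, 48 hours names this experiment and is not a time since 4OHT. The mouse 1027B organoids and 3311 cells share p53frt and Rosa-FSF-CreERT2 with Foxa1flox and Foxa2flox, and no deletion of Foxa1 or Foxa2 is named for them. Trametinib, a MEK inhibitor, was given to 1027B at 10 nM and to 3311 at 50 nM for 48 hours, each with vehicle controls, and 1027B had another arm with 20 nM MRTX1133. In the human cell lines H358 and H1651 the trametinib dose was 20 nM over 48 hours. H1651 cells carrying a lentiviral HNF4α construct were kept for 7 days with doxycycline at 1 µg/mL or without it. 4OHT was given to 3154 only, so effects of 4OHT itself or of CreERT2 activation cannot be told apart from those of losing Hnf4a. Changes named below as deletion are 4OHT against ethanol. Each culture is 1 organoid line or 1 cell line, and the labels do not say whether replicates were separate cultures, so every p value measures the spread between these libraries only.

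The respiratory chain passes electrons from NADH and succinate to oxygen through complexes I to IV of the inner mitochondrial membrane, and complex V, the ATP synthase, uses the proton gradient this builds to make ATP. Most subunits are encoded in the nucleus and imported. The mitochondrial genome encodes core subunits of complexes I, III, IV and V, transcribed as long precursors from both strands and cut into single messages, while complex II (succinate dehydrogenase) is wholly nuclear. Lung adenocarcinoma cells use both glycolysis and oxidative phosphorylation, and regulators such as PGC-1α (Ppargc1a), NRF1 and the ETS factor GABPA (NRF2) are known to act on genes of both genomes' machinery.

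Library totals ran from 19692517 to 45284286 counts. Epithelial markers (EPCAM, CDH1, KRT8, KRT18, KRT19) summed to between 3601 and 10910 normalised counts (CPM, scaled by edgeR's TMM factors) in every library, while immune markers summed to at most 8.56 CPM and endothelial markers to at most 21.2 CPM. Fibroblast markers summed to at most 26.3 CPM in mouse libraries and ran from 41.2 to 757 CPM in the human cell lines. Muscle markers, mostly Myh7, summed to between 52.7 and 566 CPM in mouse libraries and to at most 1.80 CPM in human ones. Hnf4a followed its treatment: it stood at 315 and 427 CPM 2 weeks after ethanol and at 53.5 and 68.0 CPM after 4OHT, at 221 and 230 CPM against 49.4 and 50.4 CPM in the 48-hour experiment, and HNF4A stood at 47.1 and 35.9 CPM without doxycycline and 94.4 and 96.8 CPM with it.

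The count tables give mitochondrially encoded members a larger share of human than of mouse libraries, with 5 of the 13 genes all but missing from the mouse counts, as described next for their nuclear copies. They made up between 0.929% and 3.13% of all counts in mouse libraries and between 3.74% and 5.84% in human ones, and the ranges do not overlap. Nuclear members took between 0.599% and 1.15% of counts over all 34 libraries. The ratio of mitochondrial to nuclear counts ran from 0.894 to 4.05 in mouse and from 4.36 to 9.30 in human libraries. In bulk RNA, fewer cells with a transcript and less of it per cell cannot be told apart.

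**Figure D1:**
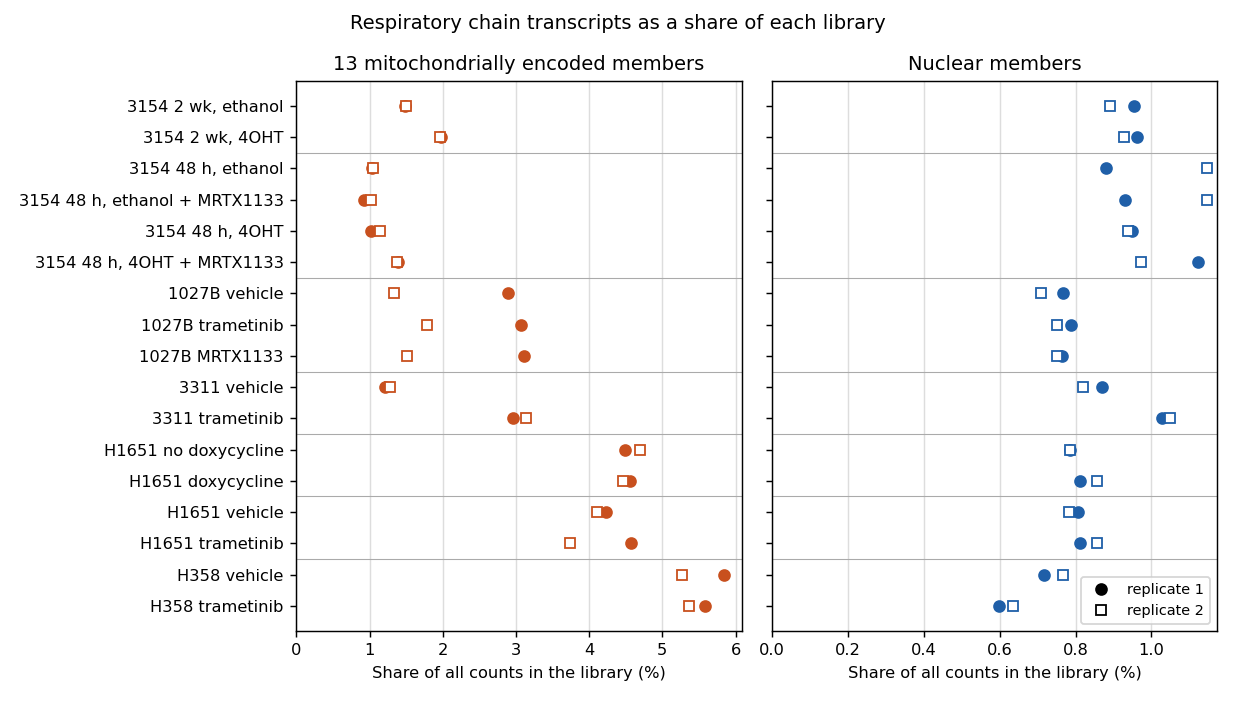
Share of all counts (percent) taken by the 13 mitochondrially encoded members (left) and by the nuclear members (right) in each of 34 libraries, 1 point per library, filled for replicate 1 and open for replicate 2. The 2 trametinib libraries of 3311 stand at 2.96% and 3.13% on the left against 1.21% and 1.28% in vehicle, and the 3 replicate 1 libraries of 1027B stand above the 3 replicate 2 libraries.

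The mouse annotation holds near-identical nuclear copies of several mitochondrial genes. The share of each gene's 100-base windows found in another annotated transcript was 99.5% for mt-Co2, 99.9% for mt-Co3, 99.5% for mt-Atp6, 97.6% for mt-Nd3 and 98.5% for mt-Nd4l. It was 60.8% for mt-Nd4, 30.8% for mt-Co1, 3.19% for mt-Nd2 and 0% for mt-Nd1, mt-Nd5, mt-Nd6, mt-Cytb and mt-Atp8. A 60-base stretch of mt-Co2 (chrM:7313-7372, plus strand, GRCm38, from the GENCODE vM21 transcripts) shows the identity: the same letters stand in the pseudogene transcripts Gm13341 and Gm28661.
mt-Co2: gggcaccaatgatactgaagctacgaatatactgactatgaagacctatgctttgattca
The last bases of mt-Atp8 are also the first of mt-Atp6, on the same strand (chrM:7927-7969), so a read inside them belongs to both genes.
mt-Atp8 and mt-Atp6 overlap: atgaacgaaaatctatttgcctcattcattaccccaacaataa
The 5 genes with over 90% of windows shared were counted at medians of 0.882 to 16.9 CPM over the 22 mouse libraries. Of the genes with 0% shared, mt-Cytb, mt-Nd1 and mt-Nd5 had medians of 2395, 1945 and 1684 CPM, mt-Nd6 of 37.0 CPM and mt-Atp8 of 3.40 CPM, the last inside the range of the 5 shared genes. mt-Nd4, mt-Nd2 and mt-Co1, shared in part, had medians of 675, 984 and 7080 CPM. In H358 the same 5 genes stood at 881 CPM or more in both vehicle libraries. How much of the low mouse values of these 5 genes comes from reads that match more than 1 place was not tested.

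Per kilobase of exon, mouse mt-Co1, the catalytic core of complex IV, was the highest member, with a median of 4582 CPM per kb over 22 libraries (2885 to 8913). Next came mt-Cytb, the cytochrome b of complex III, at 2094 (652 to 5122), and the complex I subunits mt-Nd1 at 2032 (998 to 4213), mt-Nd2 at 948, mt-Nd5 at 924 and mt-Nd4 at 490 CPM per kb. These ranges overlap between neighbours in the order. Of nuclear members Atp5a1, the α subunit of ATP synthase, had the highest median over the pooled tables, 282 (234 to 431), followed by Cox6a1 at 271 and Cox6b1 at 232 CPM per kb. The order differed between tables: in 3311 Atp5b, the β subunit, was above Atp5a1 in all 4 libraries. Lengths are exon unions of GENCODE vM21.

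With trametinib in 3311 cells most mitochondrially encoded members were called higher, while nuclear members were called higher about as often as genes in general. Of the 13 mitochondrial members 11 were called higher and 0 lower (adjusted p under 0.05, edgeR's quasi-likelihood test with Benjamini-Hochberg adjustment over all genes), with a median log2 change of 1.42. Of 79 nuclear members 16 were called higher and 1 lower, with a median of 0.175. Over all 15224 genes 39.0% were called, 19.4% higher and 19.6% lower, with a median of 0.00814. The nuclear members called higher (16 of 79) are close to the 19.4% of all genes, those called lower (1 of 79) are below the 19.6%, and the mitochondrial members called higher are above the background. The mitochondrial share of counts was 1.25% ± 0.0495 in vehicle and 3.05% ± 0.118 with trametinib (SD, n = 2 each), and the ratio of mitochondrial to nuclear counts went from 1.48 ± 0.124 to 2.93 ± 0.0742. Leaving out trametinib replicate 1 lowered the number of members called from 28 to 17.

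**Figure D2:**
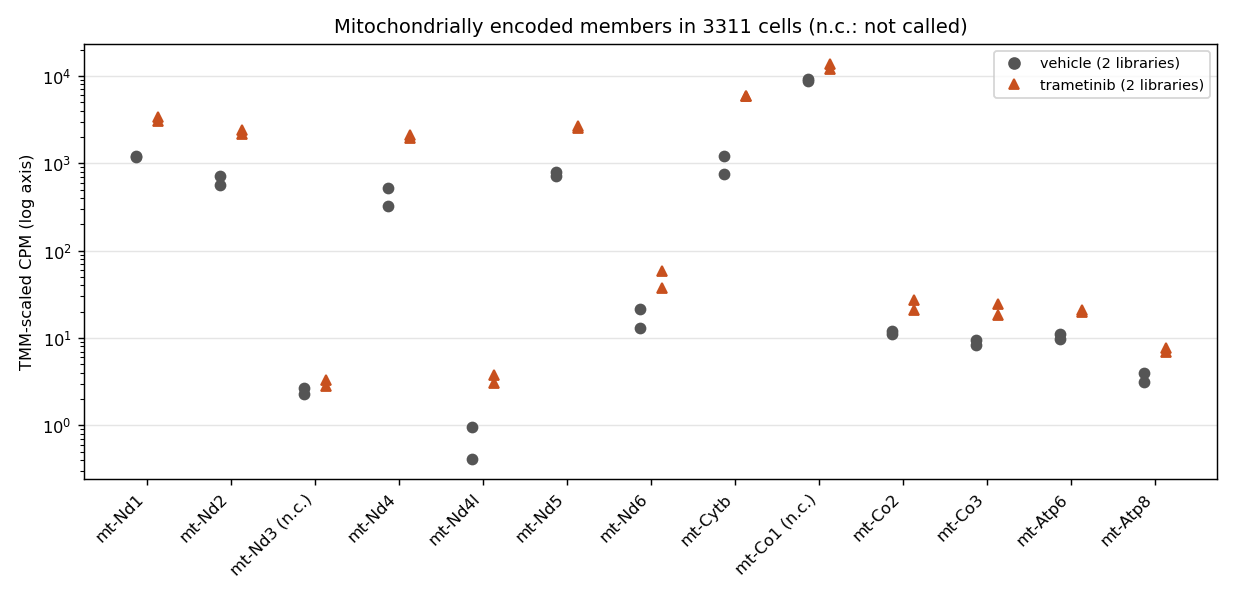
TMM-scaled CPM (log axis) of the 13 mitochondrially encoded members in 3311 cells, 2 vehicle libraries (circles) and 2 trametinib libraries (triangles) per gene, with n.c. for genes not called. The trametinib libraries stand above the vehicle libraries for all 13 genes, and mt-Nd3 and mt-Co1 were not called.

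The largest mitochondrial rise was in mt-Cytb (ENSMUSG00000064370, chrM:14145-15288, plus strand), which stood at 746 and 1209 CPM in vehicle and at 5857 and 5860 CPM with trametinib. The 2 trametinib libraries were nearly equal and both above either vehicle library, a log2 change of 2.58 (SE 0.28, adjusted p 0.00110). mt-Nd4 went from 323 and 523 CPM to 1953 and 2120 CPM (log2 change 2.27, SE 0.26, adjusted p 0.00124). In both genes vehicle replicate 2 was above vehicle replicate 1. Among other complex I subunits, mt-Nd2 went from 559 and 710 to 2189 and 2426 CPM (log2 change 1.86, adjusted p 0.00104) and mt-Nd5 from 708 and 796 to 2540 and 2670 CPM (log2 change 1.79, adjusted p 0.000918). mt-Nd1 went from 1185 and 1214 to 3014 and 3423 CPM (log2 change 1.42, adjusted p 0.00199). The groups were apart in each of the 3 genes, by more than the gap between replicates.

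mt-Nd6 is the 1 protein-coding gene of the other strand, and it rose as well, from 21.2 and 13.1 to 37.0 and 59.2 CPM (log2 change 1.49, adjusted p 0.00909). mt-Co1, the member with the highest counts, stood at 9336 and 8767 CPM in vehicle and 12120 and 13770 CPM with trametinib. Its log2 change of 0.52 was not called by edgeR (adjusted p 0.128, and 0.00771 with DESeq2, which called 38.7% of all genes). Its trametinib libraries were above its vehicle libraries. For the 5 genes with over 90% of windows shared the counts were low: mt-Co2 stood at 11.9 and 11.0 against 21.2 and 27.0 CPM (log2 change 1.07, adjusted p 0.00740). mt-Co3 rose by a log2 change of 1.27 (adjusted p 0.00564), mt-Atp6 by 0.97 (adjusted p 0.00848) and mt-Nd4l by 2.32 (adjusted p 0.0103), the last from under 1 CPM. mt-Atp8, an ATP synthase subunit, rose by 1.06 (adjusted p 0.0231), and mt-Nd3, at 2.31 to 3.35 CPM in all 4 libraries, was not called (log2 change 0.31, adjusted p 0.485).

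Reads on the nuclear copies were higher as well. Of 10 annotated copies tested, 8 were called higher in 3311 with trametinib and 0 lower, with a median log2 change of 1.21. The 5 mitochondrial genes with over 90% of windows shared had a median of 1.07 (4 called) and the 7 others, mt-Atp8 left out, a median of 1.79 (6 called). The mitochondrial 12S rRNA gene mt-Rnr1 went the other way, from 853 and 637 to 347 and 499 CPM (log2 change -0.82, adjusted p 0.0294), and the 16S rRNA gene mt-Rnr2 was not called, at 1559 and 1057 against 1078 and 1617 CPM (log2 change 0.04, adjusted p 0.913). Poly(A) selection was used, and how completely rRNA and short mitochondrial messages were captured in each library was not tested.

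Nuclear complex I had 7 of 36 members called higher with trametinib in 3311 and 0 lower, a share no higher than the 19.4% of all genes called higher. Ndufb7 went from 24.2 and 22.5 to 44.3 and 42.9 CPM (log2 change 0.90, SE 0.15, adjusted p 0.00438), and Ndufa11 from 20.3 and 22.4 to 38.7 and 37.6 CPM (log2 change 0.84, adjusted p 0.00655); both are accessory subunits. Ndufs1, an iron-sulfur core subunit, went from 88.0 and 93.7 to 148 and 142 CPM (log2 change 0.67, adjusted p 0.00769). The remaining called members of the complex, Ndufa1, Ndufa5, Ndufb2 and Ndufb10, rose by 0.49 to 0.72. Complex II had 1 of 4 called, the iron-sulfur subunit Sdhb, from 63.4 and 57.3 to 80.4 and 88.5 CPM (log2 change 0.48, adjusted p 0.0294), and complex III had 0 of 8 called, with 1 at an unadjusted p under 0.05.

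Complex IV had 5 of 14 nuclear members called higher in 3311, where 19.4% of all genes were called higher. The largest change was in Cox7a1 (ENSMUSG00000074218, chr7:30184144-30186078, plus strand), the form of subunit 7A known from heart and skeletal muscle, which went from 4.16 and 4.06 to 14.4 and 13.1 CPM (log2 change 1.74, SE 0.23, adjusted p 0.00203). Its broadly expressed counterpart Cox7a2 went from 79.1 and 67.1 to 107 and 106 CPM (log2 change 0.55, adjusted p 0.0212). Of the muscle markers, Myh7 rose from 42.6 and 65.7 to 117 and 86.8 CPM and Tnnt2 fell from 10.1 and 7.93 to 0.287 and 0.647 CPM, while Actn2 and Ckm were not tested; their part in the Cox7a1 value was not tested. Cox5b rose from 54.9 and 61.7 to 104 and 118 CPM (log2 change 0.93, adjusted p 0.00352) and Cox5a by 0.60 (adjusted p 0.0105). Ndufa4, now counted with complex IV, rose by 0.50 (adjusted p 0.0294). Cox4i1, Cox6b1, Cox7b, Cox7a2l and Cox8a were not called, with log2 changes between -0.19 and 0.23, and Cox6a1 (0.39, adjusted p 0.0547) and Cox6a2 were not called either.

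Genes around the chain did not move as 1 block in 3311. Of 13 tricarboxylic acid cycle genes 6 were called higher and 1 lower, led by the isocitrate dehydrogenase subunit Idh3a (16.8 and 22.6 to 50.4 and 49.2 CPM, adjusted p 0.00231). Of 47 assembly factors 11 were higher and 3 lower, and of 78 mitochondrial ribosome genes 6 were higher and 11 lower, where 19.4% of all genes were higher and 19.6% lower; the assembly factors called higher are near that share and the mitochondrial ribosome genes below it in both directions. The coactivator Ppargc1a went from 3.98 and 5.98 to 96.4 and 69.2 CPM (log2 change 4.06, adjusted p 0.000349). It had the largest rise in its list of 36 mitochondrial DNA regulators, of which 8 were called higher and 4 lower, with a median of 0.137. Of 16 glycolysis genes 8 were called lower and 0 higher, and of 77 cytosolic ribosomal protein genes 76 were lower. Cell type markers moved as well. Of 5 epithelial markers 1 was called lower, Krt18, from 2627 and 2380 to 847 and 1009 CPM (adjusted p 0.00205), and the epithelial sum went from 7535 and 9686 to 6158 and 7907 CPM. The fibroblast marker Col1a1 was called higher (2.08 and 1.35 to 6.70 and 3.92 CPM) and Pdgfra lower (13.7 and 13.5 to 7.71 and 7.46 CPM), with the fibroblast sum at 21.5 and 26.3 against 17.5 and 17.3 CPM. The immune marker Cd68 was called lower, from 4.87 and 4.06 to 1.54 and 0.951 CPM, and the endothelial marker Pecam1 was not called. The part of these values in the member changes was not tested.

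Trametinib in H358 cells lowered nuclear members. Of 82 tested, 44 were called lower and 0 higher, with a median log2 change of -0.374, and of the 13 mitochondrial members 4 were called lower and 0 higher, with a median of -0.0985. Of all 18972 genes 46.8% were called, 23.5% higher and 23.2% lower, with a median of 0.0152. Of the nuclear members 53.7% were called lower, above the 23.2% of all genes. Nuclear members took 0.741% ± 0.0351 of counts in vehicle and 0.617% ± 0.0253 with trametinib, while the mitochondrial share was 5.55% ± 0.406 and 5.47% ± 0.152. DESeq2 called 41 nuclear members lower and 0 higher; it called 39.8% of all genes, 20.4% lower. Without vehicle replicate 2 the number of members called went from 48 to 22, and without trametinib replicate 2 it was 56.

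By complex, the members called lower in H358 were 15 of 36 nuclear members of complex I, 1 of 4 of complex II, 5 of 9 of complex III, 9 of 15 of complex IV and 14 of 18 of complex V. The share of all genes called lower was 23.2%, close to the 1 of 4 of complex II. The largest falls among members over 10 CPM were in ATP5MC1, COX8A and UQCRC1. ATP5MC1, a gene of the membrane-embedded c ring of ATP synthase, went from 52.2 and 59.2 to 18.8 and 21.9 CPM (log2 change -1.46, SE 0.13, adjusted p 0.000109). COX8A went from 140 and 154 to 66.0 and 64.4 CPM (log2 change -1.17, adjusted p 9.8e-05), and UQCRC1, a core protein of complex III, from 306 and 281 to 143 and 132 CPM (log2 change -1.09, adjusted p 0.000132). For each of the 3 the trametinib libraries were below both vehicle libraries, by more than the gap between replicates.

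Other falls in H358 were smaller or at lower levels. The β subunit of ATP synthase, ATP5F1B, went from 678 and 719 to 437 and 469 CPM (log2 change -0.62, adjusted p 0.00162). SDHB fell by 0.80 on the log2 scale (adjusted p 0.000950), NDUFB6 by 0.75 (adjusted p 0.00268) and ATP5MF by 0.73 (adjusted p 0.00515). The tissue-restricted forms were among the largest changes at low levels: COX6B2, the testis form of subunit 6B, went from 8.88 and 4.63 to 1.23 and 1.18 CPM (log2 change -2.49, adjusted p 0.000725), and NDUFA4L2, known as a target of hypoxia-inducible factor, from 2.95 and 3.40 to 0.559 and 0.824 CPM (log2 change -2.24, adjusted p 0.000633). COX7B2 went from 44.1 and 47.7 to 22.6 and 23.0 (log2 change -1.01, adjusted p 0.000326). Their common counterparts COX6B1 (log2 change -0.29, adjusted p 0.0668) and NDUFA4 (-0.27, adjusted p 0.0935) were not called, COX7B was (-0.59, adjusted p 0.00959), COX4I1 was (-0.34, adjusted p 0.0253), and COX6A1, COX7A2 and COX7A2L were not.

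The 4 mitochondrial members called in H358 were MT-ND4, MT-ND4L, MT-ND6 and MT-CO2. MT-ND4L went from 1527 and 1454 to 977 and 973 CPM (log2 change -0.61, adjusted p 0.00159) and MT-ND4, whose message it shares, from 9357 and 8650 to 5953 and 6713 CPM (log2 change -0.51, adjusted p 0.00811). MT-ND6 fell by 0.55 (adjusted p 0.0124) and MT-CO2 by 0.37 (adjusted p 0.0320). MT-ND6 was not called without vehicle replicate 1, and MT-CO2 was not called without either vehicle library or without trametinib replicate 2. The other 9 lay close to their vehicle values, with MT-CYB at 3504 and 3103 against 3547 and 3295 CPM (log2 change 0.05, adjusted p 0.740) and MT-CO1 at 14420 and 12900 against 14320 and 13290 CPM (log2 change 0.02, adjusted p 0.929). MT-ND1, MT-ND2, MT-ND3, MT-ND5, MT-CO3, MT-ATP6 and MT-ATP8 had log2 changes between -0.20 and 0.03.

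In the surrounding lists in H358, where 23.2% of all genes were called lower, 53 of 78 mitochondrial ribosome genes, 20 of 48 assembly factors, 6 of 13 tricarboxylic acid cycle genes, 15 of 15 glycolysis genes and 69 of 76 cytosolic ribosomal protein genes were called lower, against 1, 2, 0, 0 and 0 called higher. Most assembly factors and tricarboxylic acid cycle genes were not called, and 5 of 13 of the latter had a positive change. The copper chaperone COX17 went from 25.6 and 28.8 to 9.05 and 9.66 CPM (log2 change -1.54, adjusted p 0.000102) and LDHA, lactate dehydrogenase A, from 1076 and 1303 to 181 and 241 CPM. PPARGC1A was again higher, at 3.44 and 2.96 CPM in vehicle and 14.4 and 16.6 CPM with trametinib (log2 change 2.27, adjusted p 5.81e-05). Its list of 35 mitochondrial DNA regulators went mostly the other way, with 15 called lower, 3 higher and a median log2 change of -0.286. Of 6 fibroblast markers tested 4 were called higher, and their sum went from 50.0 and 41.2 to 349 and 246 CPM, mostly LUM and COL1A1; DCN had 0 counts in both vehicle libraries. Of 5 epithelial markers 3 were called lower and 1 higher, their sum going from 5534 and 5337 to 3601 and 3882 CPM, and the endothelial sum went from 12.1 and 14.4 to 21.1 and 21.2 CPM. The part of these values in the subunit changes was not tested.

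**Figure D3:**
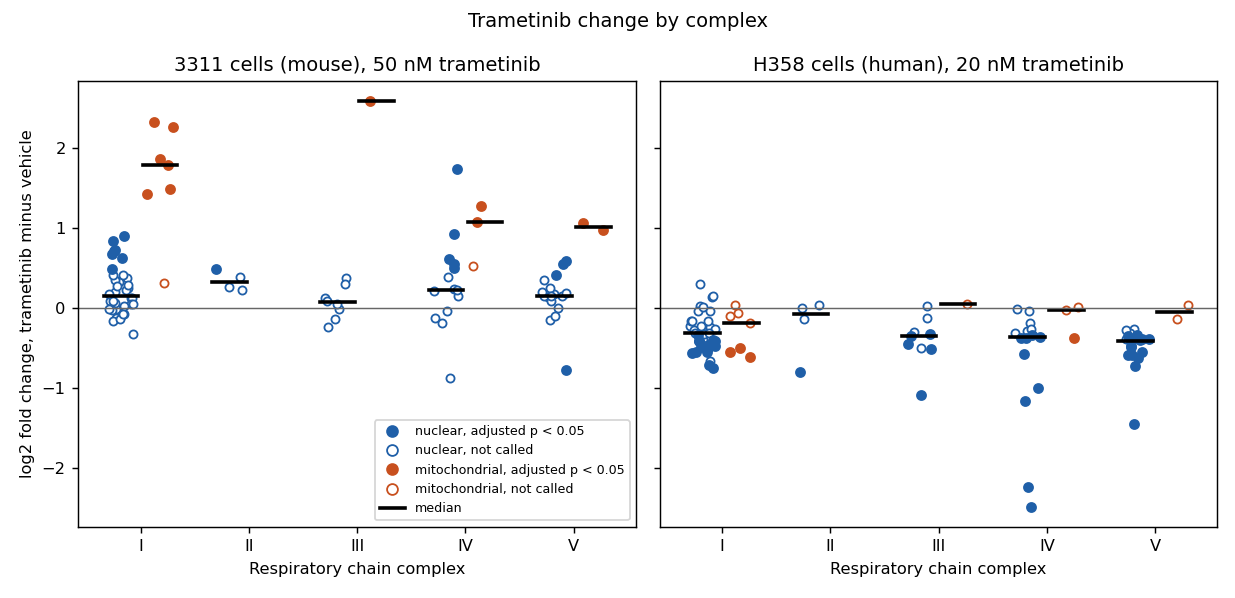
Log2 fold change with trametinib of each nuclear (blue) and mitochondrial (orange) member by complex, in 3311 cells at 50 nM (left) and H358 cells at 20 nM (right), filled where adjusted p was under 0.05, with bars at the medians. In 3311 all mitochondrial points lie above 0, up to 2.58 for mt-Cytb; in H358 most nuclear points lie below 0 in complexes I, III, IV and V.

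Of 90 members tested in both 3311 and H358, 12 were called in both, each higher in 3311 and lower in H358. The calls within each line nearly fix this direction, since H358 had 48 members lower and 0 higher and 3311 had 27 higher and 1 lower, and the overlap over all genes was not computed. The 12 were MT-ND4, MT-ND4L, MT-ND6, MT-CO2, NDUFB2, NDUFB7, NDUFB10, SDHB, COX5A, ATP5MC1, ATP5MC3 and ATP5PF. The doses, species and alignments differ between the lines, and the difference itself was not tested. In H1651 0 members were called with trametinib by edgeR or DESeq2, against 0% of all 18277 genes by edgeR and 0.257% by DESeq2. An unadjusted p under 0.05 by edgeR was found for 0 members and for 597 of all genes. Nuclear members had a median log2 change of 0.0381 and mitochondrial members of -0.0363, inside the spread of the libraries: MT-ND4 stood at 7515 and 7453 CPM in vehicle and 8199 and 6660 CPM with trametinib. Of 10 genes that respond to ERK signalling 9 had an unadjusted p under 0.05 there, with a median log2 change of -1.52. Same-numbered libraries correlated at 0.623, and with the replicate number as a block 0 members and 10.3% of all genes were called. In that fit 11 of 95 members and 3862 of all 18277 genes had an unadjusted p under 0.05.

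**Figure D4:**
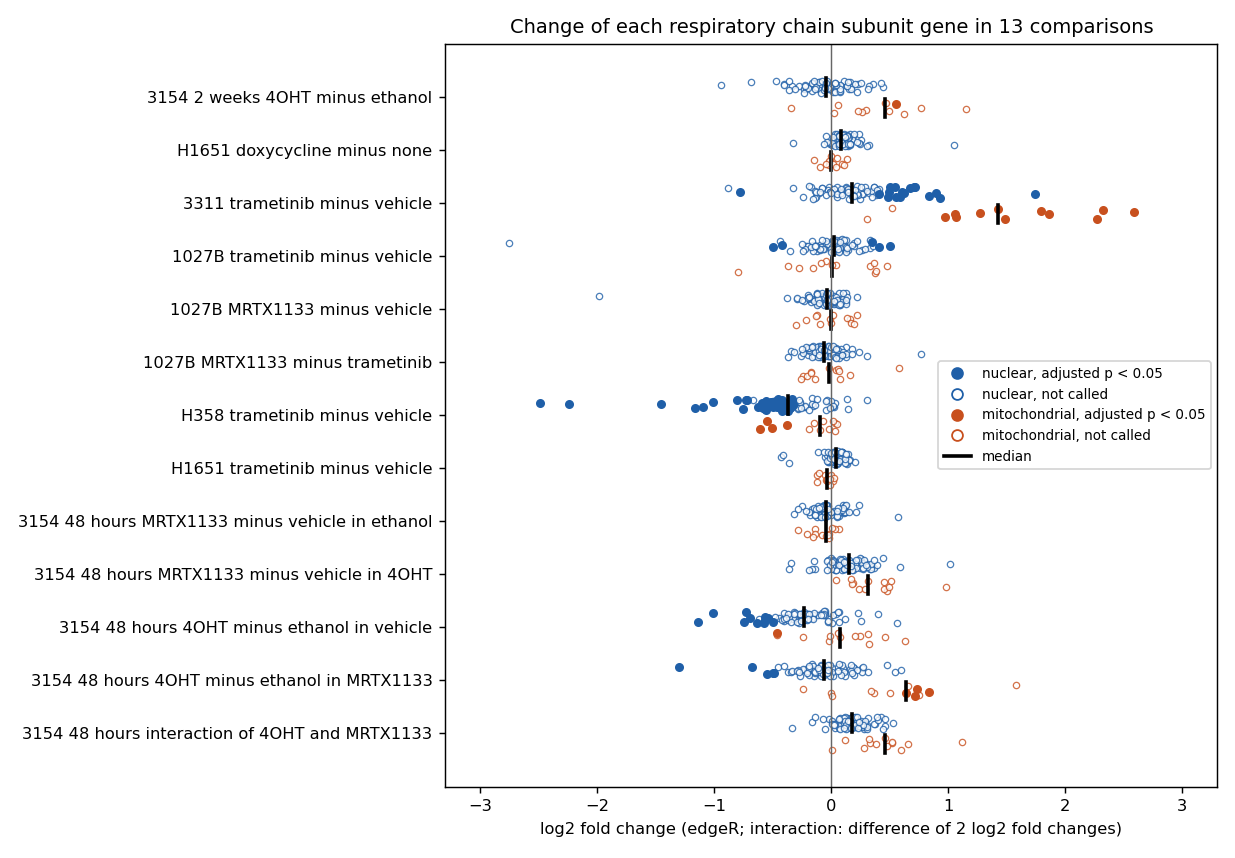
Log2 fold change of each nuclear (blue) and mitochondrial (orange) member in all 13 comparisons, filled where adjusted p was under 0.05, with black bars at the medians (for the interaction, the difference of 2 log2 fold changes). The mitochondrial median is farthest from 0 in 3311 with trametinib, at 1.42, and the nuclear median in H358 with trametinib, at -0.374.

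The 3 genes that encode the identical mature c subunit of ATP synthase, Atp5g1, Atp5g2 and Atp5g3 (ATP5MC1, ATP5MC2 and ATP5MC3 in human), moved differently. In 3311, Atp5g2 (ENSMUSG00000062683, chr15:102662864-102672352, minus strand) was the 1 nuclear member called lower with trametinib, from 226 and 176 to 108 and 126 CPM (log2 change -0.78, SE 0.17, adjusted p 0.0118). Atp5g1 rose from 82.0 and 81.7 to 105 and 113 CPM (log2 change 0.41, adjusted p 0.0419) and Atp5g3 from 182 and 174 to 261 and 275 CPM (log2 change 0.59, adjusted p 0.0129). Atp5g2 was called under all 11 alternatives, while Atp5g1 was not called when any 1 of the 4 libraries was left out and Atp5g3 was not called without trametinib replicate 2. In 1027B trametinib lowered Atp5g2 from 93.8 and 101 to 73.8 and 71.6 CPM (log2 change -0.42, adjusted p 0.0186), with Atp5g1 (-0.13, adjusted p 0.375) and Atp5g3 (-0.01, adjusted p 0.966) not called. Atp5g2 was not called there without vehicle replicate 2 or without either trametinib library. In H358 the order was another: ATP5MC1 and ATP5MC3 (log2 change -0.50, adjusted p 0.00738) were called lower, and ATP5MC2 was not (-0.26, adjusted p 0.0789).

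**Figure D5:**
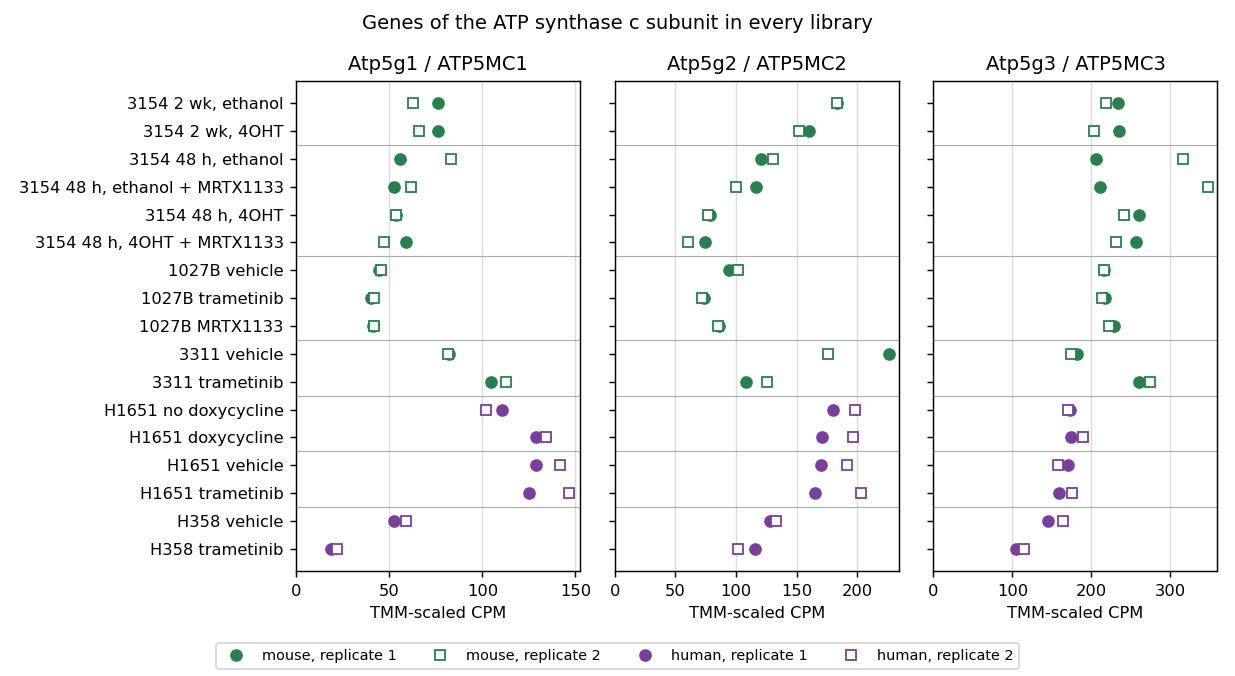
TMM-scaled CPM of the 3 c subunit genes in each of 34 libraries, mouse in green and human in purple, filled for replicate 1 and open for replicate 2. Atp5g2 is lower with trametinib in 3311 and 1027B and with 4OHT at 48 hours in 3154, while ATP5MC1 is lower with trametinib in H358.

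Promoters of the nuclear members were read for 2 motifs in the 250 bases before each start in the RefSeq table (GRCm38.p6), on both strands: GCGCA and GCGC parted by 1 base of any kind, bound by NRF1, and CCGGAAG, an ETS motif. The table held 66 of the 79 members tested in mouse. Of these 13 (19.7%) had the NRF1 motif and 12 (18.2%) the ETS motif, against 4.23% and 7.83% of all 27025 genes in the table. Of 15 matched members called higher in 3311 with trametinib 2 had each motif (13.3%), and of 50 not called 10 had each (20.0%). The NRF1 windows of 4 called members are shown, with the motif in capitals, each as read towards its gene.
Atp5g2, chr15:102671070-102671099, minus strand: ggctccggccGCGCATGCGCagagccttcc
Atp5c1, chr2:10080433-10080459, minus strand: ctgagctcccGCGCACGCGCactgagt
Ndufa11, chr17:56717692-56717721, plus strand: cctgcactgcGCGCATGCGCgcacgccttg
Ndufa5, chr6:24527697-24527726, minus strand: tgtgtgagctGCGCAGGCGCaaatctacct
Ndufa11 and Ndufa5 were called higher with trametinib in 3311, and Atp5g2 and Atp5c1 lower in comparisons described here. In GENCODE vM21 the motif lies in an annotated exon for Atp5g2, Atp5c1 and Ndufa5 and outside one for Ndufa11. A match is a match of letters and says nothing of binding in these cells.

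In 1027B organoids mitochondrial levels followed the replicate number more than the drug. The replicate 1 libraries of vehicle, trametinib and MRTX1133 had 2.89%, 3.07% and 3.10% of counts on mitochondrial members, and the replicate 2 libraries 1.34%, 1.79% and 1.52%. Both replicates of mt-Cytb were higher with trametinib than the same replicate in vehicle, at 4353 and 2195 against 5840 and 3257 CPM. Without a replicate term 0 mitochondrial members were called (adjusted p 0.478 for mt-Cytb), 0 at an unadjusted p under 0.05 and 0 by DESeq2, which called 29.8% of all genes. With the replicate number as a block, where 44.9% of all genes were called and 21.9% called higher, 4 of 13 were called higher: mt-Cytb (log2 change 0.50, adjusted p 0.000546), mt-Nd5 (0.40, adjusted p 0.00266), mt-Nd4 (0.43, adjusted p 0.00330) and mt-Nd2 (0.37, adjusted p 0.00469). Of cell type markers Tnnt2 (3.34 and 4.66 to 0.267 and 0.420 CPM), Krt19 and Ptprc were called lower and Cdh1 higher with trametinib there, and their part in these values was not tested.

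Among 79 nuclear members in 1027B, trametinib gave 3 higher and 2 lower calls, with a median log2 change of 0.0249. Of all 14555 genes 26.7% were called, 13.5% higher and 13.2% lower, with a median of -0.0115. Uqcr10, a small subunit of complex III, went from 40.5 and 35.8 to 58.6 and 49.4 CPM (log2 change 0.50, adjusted p 0.0370), Ndufc2 from 50.0 and 46.1 to 65.6 and 61.5 CPM (log2 change 0.40, adjusted p 0.0350) and Sdhc, a membrane anchor of complex II, from 75.8 and 74.5 to 90.2 and 101 CPM (log2 change 0.35, adjusted p 0.0453). Ndufs4, an accessory subunit of complex I, went from 35.0 and 30.3 to 24.1 and 22.1 CPM (log2 change -0.50, adjusted p 0.0449), and Atp5g2 fell as given. With the replicate block 7 were higher and 7 lower, against 44.9% of all genes, and these included Cox4i2, the hypoxia-linked form of subunit 4, at 1.36 and 3.36 against 0.178 and 0.513 CPM (adjusted p 0.0619 without the block and 0.00209 with it). No more than 4 of the 5 calls remained when any 1 library was left out, and 0 when vehicle replicate 2 or trametinib replicate 1 was. Of 13 tricarboxylic acid cycle genes 3 were lower and 0 higher.

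MRTX1133 in 1027B called 0 members by edgeR or DESeq2, against 6.27% of all genes by edgeR and 11.2% by DESeq2. An unadjusted p under 0.05 by edgeR was found for 3 of 79 nuclear members, against 3375 of all 14555 genes. The median log2 change was -0.0395 for nuclear and -0.000457 for mitochondrial members. With the replicate block 5 nuclear members were called lower, against 24.1% of all genes: Ndufv3, Uqcrq, Uqcr11, Cox4i2 and Atp5d, by 0.25 to 2.08 on the log2 scale. Trametinib and MRTX1133 share the vehicle libraries. Compared directly, the drugs differed in 0 members by edgeR (0% of all genes called; 4 members at an unadjusted p under 0.05) and 0 by DESeq2 (4.89% of all genes). With the block Ndufa7 (log2 change -0.24, adjusted p 0.0487) and mt-Cytb (-0.28, adjusted p 0.0278) were lower with MRTX1133 than with trametinib, against 14.1% of all genes.

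At 2 weeks after Hnf4a deletion in 3154 organoids 1 mitochondrial member was called higher and 0 nuclear members were called. Of 13 mitochondrial members 12 had a positive change, with a median of 0.459. mt-Nd4 went from 609 and 629 CPM after ethanol to 929 and 885 CPM after 4OHT (log2 change 0.55, SE 0.12, adjusted p 0.0436), and it was not called when any 1 of the 4 libraries was left out. mt-Cytb stood at 2255 and 2201 against 3110 and 3170 CPM (log2 change 0.50, adjusted p 0.0606) and mt-Nd2 at 1236 and 1114 against 1752 and 1502 CPM (log2 change 0.47, adjusted p 0.0971), while mt-Co1 (0.06, adjusted p 0.826) and mt-Nd6 (-0.35, adjusted p 0.214) were not called. Of 79 nuclear members 0 were called by edgeR and 1 was called lower by DESeq2, with a median of -0.0447. An unadjusted p under 0.05 by edgeR was found for 8 of these 79, against 4154 of all 14492 genes. Of all 14492 genes 9.81% were called, 4.03% higher and 5.78% lower. DESeq2 called 5 members, 4 of them mitochondrial and higher, against 15.9% of all genes. The muscle marker Tnnt2 was called higher, from 1.12 and 2.96 to 11.7 and 19.6 CPM (adjusted p 0.0264), and Myh7, most of the muscle sum, was not called, at 348.5 and 419 against 288 and 275 CPM (adjusted p 0.103). The endothelial marker Pecam1 was called lower, from 5.93 and 5.03 to 2.04 and 2.21 CPM (adjusted p 0.0394), with the endothelial sum at 5.93 and 5.08 against 2.17 and 2.55 CPM. Of 5 epithelial markers 0 were called, and no immune or fibroblast marker tested was called. The part of these values in the mitochondrial changes was not tested.

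At 48 hours the nuclear members called lower after Hnf4a deletion were about as frequent as genes called lower in general. With vehicle 11 of 79 were called lower and 0 higher, with a median log2 change of -0.236, against 31.0% of all genes called, 15.3% higher and 15.7% lower, and a median of 0.0103 over all 15458 genes. The nuclear median was -0.0463 without ethanol replicate 2 and -0.430 without ethanol replicate 1. Ndufv3, a complex I subunit of the NADH-oxidising module (ENSMUSG00000024038, chr17:31520115-31531331, plus strand), went from 142 and 127 to 66.7 and 55.9 CPM (log2 change -1.14, SE 0.15, adjusted p 0.00165). Ndufa6 (ENSMUSG00000022450, chr15:82350140-82354322, minus strand), also of complex I, went from 124 and 125 to 62.2 and 61.9 CPM (log2 change -1.01, SE 0.13, adjusted p 0.00144). In both genes the 4OHT libraries lay below both ethanol libraries by more than the gap between replicates.

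Further calls at 48 hours in vehicle reached the other complexes. Uqcrq of complex III went from 108 and 144 to 74.3 and 76.1 CPM (log2 change -0.75, adjusted p 0.0182). Cox7a2l, a factor of the supercomplex that joins complexes III and IV, went from 159 and 161 to 98.1 and 95.6 CPM (log2 change -0.73, adjusted p 0.00648), and Atp5g2 from 121 and 130 to 78.1 and 76.5 CPM (log2 change -0.70, adjusted p 0.00961). The γ subunit gene Atp5c1 went from 284 and 285 to 184 and 184 CPM (log2 change -0.63, adjusted p 0.00483) and the α subunit gene Atp5a1 from 1351 and 1295 to 966 and 906 CPM (log2 change -0.50, adjusted p 0.0112). Ndufb11, Uqcrfs1, Uqcrc2 and Cox8a fell by 0.54 to 0.57. Replicates of the ethanol group differed: Atp5g3 stood at 206 and 316 CPM there and at 261 and 242 CPM after 4OHT, and Cox4i1 at 406 and 561 against 377 and 374 CPM, neither of them called.

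Of mitochondrial members, mt-Co1 was called lower in this comparison, from 6967 and 5453 to 4458 and 4562 CPM (log2 change -0.46, adjusted p 0.0361), and 0 were called higher. The median of the 13 was 0.0775, with -0.0511 without 4OHT replicate 2 and 0.282 without 4OHT replicate 1. Its ethanol replicates lay farther apart than its 4OHT replicates, and it was not called under 10 of 17 alternatives. Without ethanol replicate 1 the number of members called was 22 in place of 12, and without 4OHT replicate 1 it was 2. Of the muscle markers tested 2 of 2 were called higher, and their part in these values was not tested. In the lists beside the chain 75 of 76 cytosolic ribosomal protein genes, 14 of 16 glycolysis genes and 5 of 13 tricarboxylic acid cycle genes were called lower. So were 15 of 78 mitochondrial ribosome genes and 7 of 47 assembly factors (1 higher), near the 15.7% of all genes. Among the assembly factors Ndufaf6 went from 13.1 and 11.6 to 4.25 and 4.91 CPM (adjusted p 0.00166).

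With MRTX1133 present, deletion called 5 nuclear members lower and 4 mitochondrial members higher, against 27.7% of all genes, 13.2% higher and 14.5% lower. The nuclear genes were Ndufv3 (130 and 108 to 47.9 and 49.0 CPM, log2 change -1.30, adjusted p 0.000997), Ndufa6 (-0.55, adjusted p 0.0161), Atp5g2 (-0.68, adjusted p 0.0120), Atp5c1 (-0.50, adjusted p 0.0133) and Atp5a1 (-0.49, adjusted p 0.0130), each of which was also called in vehicle. All but Ndufv3 were not called without replicate 2 of 4OHT with MRTX1133. Mitochondrial members had a median of 0.636. mt-Nd2 went from 488 and 609 to 1005 and 957 CPM (log2 change 0.84, adjusted p 0.0119), mt-Cytb from 1475 and 1680 to 2636 and 2548 CPM (log2 change 0.72, adjusted p 0.00879) and mt-Nd4 from 418 and 394 to 682 and 668 CPM (log2 change 0.73, adjusted p 0.0180). mt-Atp8, at 2.41 to 3.82 CPM, was also called (log2 change 0.64, adjusted p 0.0467), and mt-Co1 was level at 5130 and 5069 against 5032 and 5155 CPM. The number of members called ran from 2 without replicate 2 of 4OHT with MRTX1133 to 18 without replicate 1 of ethanol with vehicle. Tnnt2, Lyz2 and Col1a1, markers of muscle, immune cells and fibroblasts, were called higher in this comparison, each at no more than 5.36 CPM, and their part in it was not tested.

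MRTX1133 itself called 0 members in ethanol-treated 3154 organoids by edgeR or DESeq2, with 0 at an unadjusted p under 0.05, against 0.349% of all genes by edgeR and 2.13% by DESeq2. In 4OHT-treated organoids it called 0 by edgeR, against 4.64% of all genes, and 1 nuclear member by DESeq2, Cox7a1, against 8.68% of all genes. A fit of only these 2 groups called 16 members, 15 higher and 1 lower, and 25.2% of all genes, 12.5% higher. Cox7a1 stood at 2.806 and 3.304 CPM in vehicle and 5.76 and 6.53 CPM with MRTX1133 (log2 change 1.01, adjusted p 0.106 by edgeR and 0.0341 by DESeq2). There 4 nuclear and 4 mitochondrial members had an unadjusted p under 0.05, with medians of 0.148 and 0.311, and mt-Cytb stood at 1671 and 2064 against 2636 and 2548 CPM (log2 change 0.47, adjusted p 0.110). The interaction, the difference between the MRTX1133 changes with and without Hnf4a deletion, was called for 0 members and 0% of genes by edgeR and for 0 members and 0.233% of genes by DESeq2. All 13 mitochondrial members and 73 of 79 nuclear members had a positive value, 4 and 1 of them at an unadjusted p under 0.05, with medians of 0.460 and 0.176; for mt-Nd4 it was 0.66 (SE 0.25, adjusted p 0.615). The median over all genes was -0.0221, and the members are measured in the same libraries, so their signs are not independent. The nuclear median was -0.0429 without replicate 2 of ethanol with vehicle.

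Raising HNF4A in H1651 with doxycycline called 0 members by edgeR, against 1.42% of all 17351 genes, and 1 by DESeq2, against 2.60%. With the replicate number as a block 16 of 94 members were called, 15 higher and 1 lower, near the 17.6% of all genes. Of 81 nuclear members 75 had a positive log2 change, with a median of 0.0851, and 6 had an unadjusted p under 0.05. Over all 17351 genes 8536 had a positive change and 2203 an unadjusted p under 0.05. The cytosolic ribosome list had 74 of 75 positive (median 0.112) and the mitochondrial ribosome list 68 of 78 (median 0.105), so the shift is not particular to the members. Of 6 fibroblast markers 1 was called lower and 0 had a positive change, their sum being 663 and 757 CPM without doxycycline and 413 and 455 CPM with it, and 2 of 5 epithelial markers were called higher. The part of these values in the shift was not tested. UQCRFS1, the Rieske iron-sulfur protein of complex III, stood at 170 and 165 CPM without doxycycline and 206 and 213 CPM with it (log2 change 0.33, SE 0.07, adjusted p 0.0786 by edgeR and 0.0363 by DESeq2). ATP5MC1 stood at 111 and 102 against 129 and 134 CPM (log2 change 0.31, adjusted p 0.120). The mitochondrial members were called in 0 cases by edgeR and 0 by DESeq2, with 0 at an unadjusted p under 0.05 and a median of -0.000256; MT-CYB stood at 4262 and 4380 against 4373 and 4534 CPM.

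Over the 12 comparisons other than the interaction, ATP5MC2 (Atp5g2 in mouse) and MT-ND4 were called most often, 4 times each. Atp5g2 was lower each time: with trametinib in 3311 and 1027B and with Hnf4a deletion at 48 hours with and without MRTX1133. MT-ND4 was higher in 3 (3311 with trametinib, deletion at 2 weeks, deletion with MRTX1133) and lower in H358. ATP5F1A, ATP5F1C and NDUFA6 were called in 3 comparisons, each time lower: H358 with trametinib and both deletion comparisons at 48 hours. These counts are not independent, since the comparisons at 48 hours and those in 1027B share libraries. With trametinib 46.8% of all genes were called in H358, 39.0% in 3311 and 26.7% in 1027B. Deletion called 31.0% of all genes at 48 hours in vehicle, 27.7% with MRTX1133 and 9.81% at 2 weeks. How often a gene in general was called over the 12 comparisons was not computed.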

How the data were processed

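Poly(A) RNA was sequenced in 34 directional, paired-end libraries, per the labels' protocols. The authors deposited raw gene counts in 7 tables. Cutadapt 3.5, STAR 2.7.6a and featureCounts 1.6.3, and the builds mm10, mm39 and hg38, are named per the submitters' processing notes, with no role given. Part of the mouse genotype is not reported here. Totals per library ran from 19692517 to 45284286 counts. Positions and exon lengths come from GENCODE vM21 on GRCm38, which may not be the build counted on. Promoter windows come from RefSeq's table for GRCm38.p6.

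Each table was fitted by itself with edgeR 4.0.16 in R 4.3.3 (filterByExpr, TMM factors, quasi-likelihood test), with p values adjusted by Benjamini-Hochberg over all genes tested and called under 0.05. The SE is the absolute log2 change divided by the square root of F. The fit was tested on simulated data. Groups have 2 libraries, for which an exact permutation test could not reach 0.05, so every p comes from the models. Replicates differed beyond counting noise in all 17 groups. DESeq2 1.42.0, other scaling, other filters, the replicate block and each library left out were alternatives. Per-sample columns left unused numbered 0.

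Same-numbered libraries were checked for pairing by the correlation of their deviations. For 1027B the correlations came to 0.243, 0.372 and 0.414, each over 0.1, and the numbers were treated as pairs there on the evidence of the data alone; blocked values stand beside those results. Elsewhere they were not treated as pairs, since only 2 groups (or, at 48 hours, mixed signs) bear on it.

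The members and gene lists (assembly factors, mitochondrial and cytosolic ribosome, mitochondrial DNA regulators, tricarboxylic acid cycle, glycolysis, ERK response, cell type markers) were chosen with earlier results of these data known. Genes were named by a rule: every mitochondrial member, called nuclear members with the largest change (up to 3 higher and 3 lower, from 10 CPM), isoform pairs, c subunit genes, and members called in most comparisons. Other members named, such as Ndufa11, Ndufs1, Sdhb, ATP5F1B, Uqcrq and Atp5c1, and the promoter windows, were chosen after their values were seen.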

Additional observations from a re-analysis of the deposited data

Results flagged for a closer look

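Trametinib moved the summed CPM of the members in opposite directions in 3311 and H358, every library of each line lying on the same side of its vehicle libraries. The difference between the lines was not tested. In 3311 the nuclear sum was 9268 and 8463 CPM in vehicle and 9645 and 10180 CPM with trametinib, a ratio of means of 1.12, and the mitochondrial sum was 12910 and 13270 against 27790 and 30410 CPM, a ratio of 2.22. In H358 the nuclear sum was 7426 and 8023 against 5676 and 6192 CPM, a ratio of 0.768, and the mitochondrial sum was 60490 and 55110 against 52810 and 52280 CPM, a ratio of 0.909. As shares of counts the mitochondrial values of H358 overlap, at 5.84% and 5.26% in vehicle and 5.58% and 5.36% with trametinib. The 12 subunit genes called in both lines were higher in 3311 and lower in H358; with 0 members called higher in H358 and 1 called lower in 3311, another direction was hardly possible. The dose was 50 nM in 3311 and 20 nM in H358.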

How the results depend on the processing

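Over 78 named gene results and 993 alternatives, 856 kept their direction and side of the threshold, 110 lost a call, 25 gained one and 2 reversed. Both reversals were the uncalled MT-CO1 in H358 (0.02), which took values between -0.0764 and 0.0687 as single libraries were left out, negative without vehicle replicate 2 and (-0.0396) without trametinib replicate 1; the cause was not tested. DESeq2 called 5 members at 2 weeks in place of 1, 1 for MRTX1133 in 4OHT in place of 0 and 1 for doxycycline in place of 0. Upper-quartile factors called 2 at 2 weeks and moved the median of all genes there to 0.111, with the nuclear median at 0.0481 in place of -0.0447. Fitting only the 2 groups compared called 16 for MRTX1133 in 4OHT (25.2% of all genes) in place of 0.

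With the replicate number as a block, the members called were 18 for trametinib in 1027B in place of 5, 5 for MRTX1133, 2 between the drugs, 13 at 2 weeks (31.5% of all genes), 1 for MRTX1133 in 4OHT (4.91%), 16 for doxycycline (15 higher and 1 lower; 17.6%) and 67 in H358 (60.4%). For H1651 with trametinib the block called 0 members, 10.3% of all genes and 10 of 10 ERK response genes. The correlation of same-numbered libraries was 0.623 there, 0.427 at 2 weeks, 0.318 for H358 and for H1651 with doxycycline, 0.126 for 3311, and between -0.251 and 0.549 at 48 hours. A crossed pairing of the 48-hour libraries, chosen after seeing the data, called 4 for MRTX1133 in 4OHT (12.2% of all genes), 21 for deletion in vehicle (41.3%) and 18 for deletion with MRTX1133 (37.9%).

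Leaving out 1 library gave 17 to 25 members called in 3311, 22 to 56 in H358, 0 to 4 for trametinib in 1027B, 0 to 1 at 2 weeks, 2 to 22 for deletion in vehicle, 2 to 18 for deletion with MRTX1133 and 0 to 2 for MRTX1133 in 4OHT; fewer samples remain in each such fit. The nuclear median for deletion with MRTX1133 ran from -0.226 to 0.171, and the mitochondrial median for trametinib in 1027B from -0.468 to 0.696.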
